A study of Mus musculus with 16 samples.

Results

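H3K4me3, the trimethyl mark on lysine 4 of histone H3, was described gene by gene in haploid spermatids of mice without the histone variant H2A.B (KO) and of their wild-type brothers (WT). Of the 16 libraries of the series, the 4 made with an H3K4me3 antibody were chosen by their target label, 2 from KO and 2 from WT males, and the 4 IgG libraries were used as background. In each library, fragments with distinct coordinates on chromosomes 1 to 19 were counted when their midpoint lay within 1 kb of the start of one of 20807 protein-coding genes of GENCODE vM21 (GRCm38, mm10). KO males carried their single X chromosome with CRISPR/Cas9-made disruptions in H2afb1, H2afb2 and H2afb3, which together encode H2A.B, and WT males carried the intact genes. The disrupted X came from 1 strain and had been backcrossed to C57BL/6J. Each of the 2 pairs joined 1 KO and 1 WT unmated brother of 2 months, and libraries were paired by replicate number. Spermatids were sorted alive as haploid cells after Hoechst and propidium iodide staining, by their DNA content and the red shift of their fluorescence under UV light. Each library comes from 1 animal, and in AutoCUT&RUN an antibody tethers micrococcal nuclease (MNase), which releases the DNA around its target for paired-end sequencing.

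H3K4me3 is written by the SET1 and MLL methyltransferase complexes and is known as a mark of the first nucleosomes downstream of active gene starts, many of them CpG islands. In spermatids a late wave of testis-specific transcription precedes the exchange of histones for transition proteins and then protamines. H2A.B is a short H2A variant whose nucleosomes are known to hold less DNA than canonical ones. In CUT&RUN, MNase trims DNA to what proteins shield, so fragment length reflects the size of the shielded stretch.

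Promoter sequences show that genes with and without the mark can both be poor in CG dinucleotides. The following are the 300 bases from 250 before to 50 after the gene start, 5′ to 3′ on the strand of the gene, from the GRCm38 reference, with CG dinucleotides in capitals. They belong to the members with the highest H3K4me3 density of the spermatid list (Smcp, chr3:92588948-92589247, - strand) and the meiotic list (Syce3, chr15:89410454-89410753, - strand), and to the highest member of a list of genes silent in testis (Serpina1a, chr12:103863513-103863812, - strand).
Smcp: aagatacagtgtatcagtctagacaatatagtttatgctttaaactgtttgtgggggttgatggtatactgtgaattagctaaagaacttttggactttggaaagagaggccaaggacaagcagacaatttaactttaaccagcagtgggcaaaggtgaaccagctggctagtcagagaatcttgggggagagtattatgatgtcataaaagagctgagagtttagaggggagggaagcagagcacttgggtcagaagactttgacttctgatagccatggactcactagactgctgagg
Syce3: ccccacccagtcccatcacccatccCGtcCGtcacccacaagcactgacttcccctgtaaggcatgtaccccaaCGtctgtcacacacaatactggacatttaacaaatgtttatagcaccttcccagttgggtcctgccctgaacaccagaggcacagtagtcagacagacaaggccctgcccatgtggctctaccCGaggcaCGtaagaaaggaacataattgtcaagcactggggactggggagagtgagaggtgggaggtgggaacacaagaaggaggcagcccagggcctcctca
Serpina1a: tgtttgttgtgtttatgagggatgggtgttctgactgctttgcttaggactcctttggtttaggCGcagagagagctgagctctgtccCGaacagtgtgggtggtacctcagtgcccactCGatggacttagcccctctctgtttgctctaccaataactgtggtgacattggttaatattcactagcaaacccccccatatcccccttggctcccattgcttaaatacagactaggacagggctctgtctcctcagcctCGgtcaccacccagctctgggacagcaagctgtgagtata
The Smcp promoter held 0 CG dinucleotides, Syce3 held 5 and Serpina1a held 4. The density within 1 kb of the start, as a multiple of the mean density of the library over chromosomes 1 to 19, was 46.4 and 51.8 in KO and 62.5 and 34.9 in WT at Smcp, which encodes a protein of the sperm mitochondrial capsule. At Serpina1a, a liver gene, it was 0.987 and 2.29 in KO and 1.74 and 1.20 in WT. Thus of 2 promoters poor in CG, the one without any lay in a window far above the mean density in all 4 libraries, and the one with 4 lay near the mean.

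The 4 libraries held 1246427 (KO replicate 1), 3229214 (KO replicate 2), 708411 (WT replicate 1) and 2043088 (WT replicate 2) distinct autosomal fragments. At the mean density a window would hold 1.01, 2.62, 0.576 and 1.66 fragments. At most 1.01% of the fragments of an H3K4me3 library had the coordinates of a fragment in another H3K4me3 library. The IgG libraries were shallower, with 140181 to 236269 fragments. The bodies of H2afb1, H2afb2 and H2afb3 each held 0 to 4 fragment midpoints in a library, in KO and WT alike. Counts this low, taken over whole genes of similar sequence and not over the disrupted parts, were not used as a check of the genotype labels.

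A gene was said to carry H3K4me3 in a library where its window reached 5 times the mean density. This took 6 fragments in KO replicate 1, 14 in KO replicate 2, 3 in WT replicate 1 and 9 in WT replicate 2, so single windows of WT replicate 1 are the least certain. In libraries of many cells, fewer cells with the mark and less of the mark per cell cannot be told apart. By this rule 9403 genes (45.2% of 20807) carried the mark in both KO libraries and 9278 (44.6%) in both WT libraries. In all 4 libraries 8930 genes (42.9%) carried it, 9805 (47.1%) carried it in no library, and the other 2072 in some. Among the 8930, the middle of the distribution was 23.0 times the mean in KO (5th to 95th percentile 9.10 to 43.7) and 19.7 times in WT (8.53 to 36.2). Among the 9805, it was 0.381 times in KO and 0.301 times in WT, and 1709 genes had 0 fragments in all 4 libraries. Across the 20807 genes, Spearman's rho between single libraries lay between 0.892 and 0.929, and over the 8930 marked genes alone between 0.576 and 0.863, as a description across genes that share the depth of their libraries. Among marked genes it was highest between KO replicate 2 and WT replicate 2, the deepest libraries, and 0.761 between the KO libraries.

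Genes of the late spermatid programme carried the mark almost without exception. On a list of 28 such genes, 27 carried it in each of the 4 libraries, beside 42.9% of all genes, and the median density over the list was 26.2 and 31.6 times the mean in KO and 21.7 and 26.8 times in WT. Ldhc, the testis-specific lactate dehydrogenase, stood at 48.4 and 54.9 times in KO and 36.5 and 36.7 times in WT. Acr, which encodes the acrosomal protease acrosin, stood at 43.4 and 46.5 times in KO and 38.2 and 39.8 times in WT. At Ldhc and Acr both KO libraries were above both WT libraries, as in 27.7% of the 10680 windows tested below (6.01% had both KO libraries lower), though in pooled IgG each of the 2 windows stood at 8.89 times from 5 fragments. At Smcp the WT libraries were the highest and the lowest. Tnp1, which encodes a transition protein, stood at 17.8 and 24.8 times in KO and 13.9 and 14.5 times in WT. The lowest carrier of the list was Prm2, a protamine gene, at 13.8 and 18.3 times in KO and 5.21 and 14.5 times in WT.

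The 28th gene was Prm1, the other protamine gene, at 0.987 and 1.91 times in KO and 3.47 and 1.81 times in WT. In GENCODE the gene model of Prm1 begins upstream of a second annotated transcript start, 8953 bp into the model. At that start the density was 14.8 and 19.8 times in KO and 3.47 and 17.5 times in WT, in a window that overlaps that of Prm2. Prm1 thus passed 5 times there in 3 of the 4 libraries and did not count as a carrier. Counted at any annotated transcript start, which was tried after the data were seen, 9890 genes carried the mark in all 4 libraries, 960 of them beyond the 8930.

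Genes of meiotic prophase, a stage that spermatids have left, also carried the mark in most cases. Of 23 such genes, 19 carried it in all 4 libraries, beside 42.9% of all genes, with list medians of 20.7 and 19.8 times in KO and 15.6 and 18.1 times in WT. Syce3, a component of the synaptonemal complex that joins paired chromosomes, stood at 46.4 and 46.9 times in KO and 22.6 and 37.3 times in WT. Hormad2, which binds chromosome axes, stood at 32.6 and 30.9 times in KO and 24.3 and 21.1 times in WT, and Rec8, the meiotic cohesin subunit, at 25.7 and 28.2 times in KO and 24.3 and 30.1 times in WT. The KO libraries were above the WT libraries at Syce3 and Hormad2, as in 27.7% of tested windows, and the groups overlapped at Rec8. Rec114, needed for meiotic DNA breaks, was the lowest of the list at 0 to 0.381 times. At a later annotated start Rec114 stood at 3.95 and 8.77 times in KO and 3.47 and 4.22 times in WT. Spo11, which makes these breaks, lacked the mark at its gene start but reached 12.8 and 16.8 times in KO and 15.6 and 10.8 times in WT at a transcript start 2149 bp inside the gene.

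Of 20 genes of spermatogonia, the mitotic precursors, 7 carried the mark in all 4 libraries and 10 in no library, near the shares of all genes (42.9% and 47.1%). The highest were germline genes that stay in use later, Ddx4 at 19.7 and 24.8 times in KO and 27.8 and 28.9 times in WT, and Dazl at 27.6 and 24.8 times in KO and 19.1 and 24.1 times in WT. Lin28a, an RNA-binding protein of stem cells, stood at 11.8 and 6.48 times in KO and at 62.5 and 7.23 times in WT, where WT replicate 1 was far above the other 3 libraries. In that library 31 of the 36 Lin28a fragments were of 120 bp or less. Dmrt1, a regulator of spermatogonia, was likewise at 12.2 times in WT replicate 1 and between 0 and 0.381 times in the other 3. Neurog3 was at 0 in all 4.

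Markers of the other cells of the testis were low. Of 26 genes of Sertoli, Leydig, peritubular, endothelial and macrophage cells, 0 carried the mark in all 4 libraries and 25 carried it in none. Of all genes, 42.9% and 47.1% did so. The list medians were 0 and 0.381 times in KO and 0 and 0.602 times in WT. The highest was Des, which encodes the muscle filament desmin, at 4.94 and 2.29 times in KO and 6.95 and 2.41 times in WT, where WT replicate 1 alone passed 5 times. Cyp11a1, Fshr, Kdr and Csf1r, which mark Leydig, Sertoli, endothelial and macrophage cells, were at 0 at their gene starts in all 4 libraries. Spermatid genes thus carried the mark and the defining markers of somatic cells did not, while marked meiotic genes do not tell spermatids from spermatocytes here.

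Of 30 housekeeping genes 25 carried the mark in all 4 libraries, beside 42.9% of all genes, with list medians of 22.2 and 21.7 times in KO and 18.2 and 21.1 times in WT. Actb, which encodes cytoplasmic actin, stood at 53.3 and 49.5 times in KO and 29.5 and 31.3 times in WT. Both KO libraries were above both WT libraries there, as in 27.7% of tested windows. The 4 members below 5 times in every library were Gapdh, Eef1a1, Rpl3 and Rps14. At a later annotated start, Rpl3 reached 20.6 to 27.8 times, Rps14 31.3 to 40.4 times and Eef1a1 15.1 to 20.6 times over the 4 libraries. Gapdh, the somatic glycolytic enzyme, reached no more than 3.47 times at the highest of its annotated starts, while Gapdhs, its spermatid counterpart, stood at 49.4 and 50.3 times in KO and 22.6 and 36.1 times in WT.

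Of 17 genes for enzymes that add or remove methyl groups on H3K4 and their partners, 14 carried H3K4me3 in all 4 libraries, beside 42.9% of all genes. The highest were Ash2l and Wdr5, core subunits of the writer complexes, and Kdm5a, an H3K4 demethylase whose start lies 250 bp from another gene. Ash2l stood at 38.5 and 38.1 times in KO and 29.5 and 41.6 times in WT. At their gene starts Kmt2a and Kdm1b carried the mark in no library, with Kmt2a between 2.29 and 4.94 times, and Kmt2c carried it in 3 of the 4. At a later annotated start Kdm1b stood at 8.89 and 2.29 times in KO and 8.69 and 1.81 times in WT. Kmt2a stood at 5.92 and 2.67 times in KO and 5.21 and 1.81 times in WT at such a start.

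Of 39 Hox genes, which pattern the body axis, 1 carried the mark in all 4 libraries, 12 in some and 26 in none. Of all genes, 42.9% carried it in all 4, 9.96% in some and 47.1% in none, so Hox genes were more often in the last 2 classes. In WT replicate 1, where 3 fragments were enough, 11 Hox genes passed, against 4 to 6 in each other library. The carrier was Hoxb5, at 11.8 and 6.10 times in KO and 13.9 and 6.63 times in WT. The list median was 0.987 and 1.14 times in KO and 1.74 and 0.602 times in WT, so Hox windows were near the genome mean despite a median of 16 CG dinucleotides per promoter. Hoxd3 and Hoxd4, whose annotated starts lie 2 bp apart and share their fragments, stood at 9.87 and 4.19 times in KO and 8.69 and 7.83 times in WT. The lowest was Hoxd11, at 0 to 0.381 times. Counted at any annotated start, 5 Hox genes carried the mark.

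Genes used in other organs were bare. Of 21 such genes, Alb and Ins1 among them, 0 carried the mark in any library, while 47.1% of all genes carried it in none. The highest was Serpina1a. Krt10, a keratin of skin, was bare at its gene start but reached 10.4 times or more in all 4 libraries at a transcript start 3267 bp inside the gene. Of 1128 olfactory receptor genes 10 (0.887%) carried the mark in all 4 libraries, beside 42.9% of all genes. Olfr701 stood at 28.6 and 22.9 times in KO and 36.5 and 29.5 times in WT, Olfr180 at 30.6 and 28.97 times in KO and 29.5 and 25.9 times in WT, and Olfr112 at 24.7 and 26.7 times in KO and 39.96 and 21.1 times in WT. The groups overlapped at Olfr180 and Olfr112, and at Olfr701 both KO libraries were lower, as in 6.01% of tested windows. Olfr180 and Olfr181 start 637 bp apart and share fragments.

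**Figure D1:**
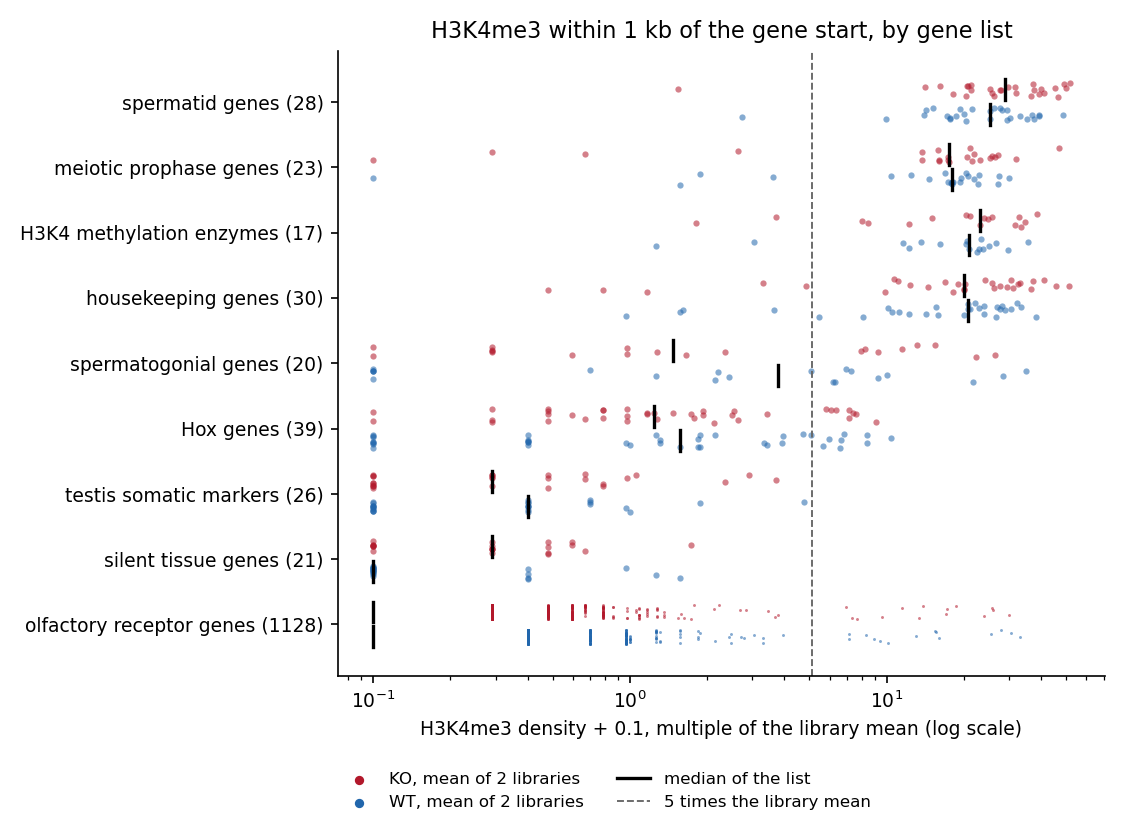
H3K4me3 density within 1 kb of the gene start, plus 0.1, as a multiple of the library mean on a log axis, for each gene of 9 lists (number of genes in parentheses). Points are means of 2 KO (red) or 2 WT (blue) libraries, black bars are list medians and the dashed line is 5 times the mean. The spermatid, meiotic, housekeeping and enzyme lists sit mostly right of the line and the somatic, silent and olfactory lists left of it, in both genotypes.

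CG content separated genes with and without the mark, and the spermatid list departed from this. The 300-base promoters of genes carrying the mark in all 4 libraries had a median of 20 CG dinucleotides, against 4 for genes carrying it in none and 12 over all 20807. Of the 6215 promoters with 0 to 4 CG dinucleotides, 14.8% carried the mark, of the 3964 with 20 to 29, 69.8% did, and of the 2776 with 30 or more, 66.1% did. The spermatid list had a median of 4.5, and 14 of its 28 members had fewer than 5, all of them carriers. On the housekeeping list the median was 17.5, on the meiotic list 18 and on the silent list 3.

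Short motifs were searched on both strands of these windows. The windows lay at the gene start, also for Prm1 and for the 960 genes counted as carriers only at other annotated starts. The letters TATAAA were present in 6.83% of promoters of genes with the mark, 19.1% of those without it and 12.7% of all. These letters were present in 0 of the 28 spermatid promoters, 27 of which belong to carriers. Among marked members of other lists, they were present in 5 of 25 housekeeping promoters (20%) and 4 of 19 meiotic promoters (21.1%). The GC box GGGCGG was present in 58.7%, 26.3% and 43.7%, in the same order, and in 6 of 28 spermatid promoters. CCAAT was present in 40.3%, 37.7% and 38.6%. The palindrome TGACGTCA, the full cyclic AMP response element, was present in 4.21%, 0.898% and 2.43%. GGGCGG and TGACGTCA contain a CG dinucleotide, so their shares are not independent of CG content. TATAAA holds only A and T, so its share is not independent of base composition. The median share of G and C was 59.3% in promoters with the mark and 50% in those without it.

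IgG libraries also gave fragments at gene starts. Over the pooled IgG libraries, 741 of the 8930 genes with the mark (8.30%) and 138 of the 9805 without it reached 5 times the mean density. Of the 8930, 4401 had 0 IgG fragments. At the mean density a window would hold only 0.114 to 0.192 fragments of an IgG library, so 0 fragments do not show that background was absent. The 10 isolated windows of highest H3K4me3 density all reached 5 times in IgG. Gm10800 on chromosome 2 stood at 3511 and 1394 times in KO and 2853 and 1624 times in WT, and at 18620 times in IgG. Gm10722, Gm11168, Gm10721, Gm17535, Gm21738, Gm10801 and Gm10715 stood between 469.3 and 923.4 times on average over the 4 libraries and between 3844 and 11410 times in IgG. Gm21190 and Gm10354 on chromosome 5 followed at 285.2 and 264.5 times, with 24.9 and 19.5 times in IgG. These predicted genes have close copies elsewhere in the genome, between which 25-base reads cannot be assigned with certainty, so their values are uncertain. Without the windows of 5 times or more in IgG, a choice made after seeing the data, the KO minus WT differences below in the share of fragments, in small over large fragments at marked genes, in its contrast with unmarked genes and in fragments near the start kept their sign, and that in modal length became 0 bp.

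A second ranking, restricted to windows under 5 times in IgG and made after the values were seen, was led by predicted genes on chromosomes 7, 8 and 14, several of them in close copies, and by Tcp10a and Tcp10b, testis-expressed genes of the t-complex region on chromosome 17. Tcp10a stood at 103.7 and 51.8 times in KO and 88.6 and 60.2 times in WT. Tcp10b stood at 93.8 and 42.7 times in KO and 85.1 and 44.0 times in WT. Both genes were higher in the replicate 1 libraries than in the replicate 2 libraries of either genotype.

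The question of whether loss of H2A.B changes where the mark lies was addressed first by the sets of marked genes. Of the 9278 genes carrying it in both WT libraries, 348 did not do so in both KO libraries, and of the 9403 in both KO libraries, 473 did not in both WT libraries. Single libraries fell on the same side of 5 times at 95.5% of genes between the KO libraries and 93.1% between the WT libraries. Between a KO and a WT library this share lay from 93.2% to 96.4%, so genotypes differed about as replicates did. Fewer genes separated the genotypes in full: 66 (0.317% of 20807) reached 5 times in both WT libraries and neither KO library, and 55 (0.264%) the reverse. These were windows near the limit, since the 66 had a median of 6.49 times in WT and 3.50 times in KO, and the 55 had 7.68 times in KO and 3.28 times in WT. Zfp213, a zinc finger gene, had the largest gap in favour of KO, at 16.8 and 11.1 times in KO and 3.47 and 4.82 times in WT. Agap3, a GTPase-activating protein gene, was at 3.95 and 4.95 times in KO and 15.6 and 8.43 times in WT. Both were chosen after their values were seen. These sets were chosen on the densities themselves, so they are a description with no test.

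**Figure D2:**
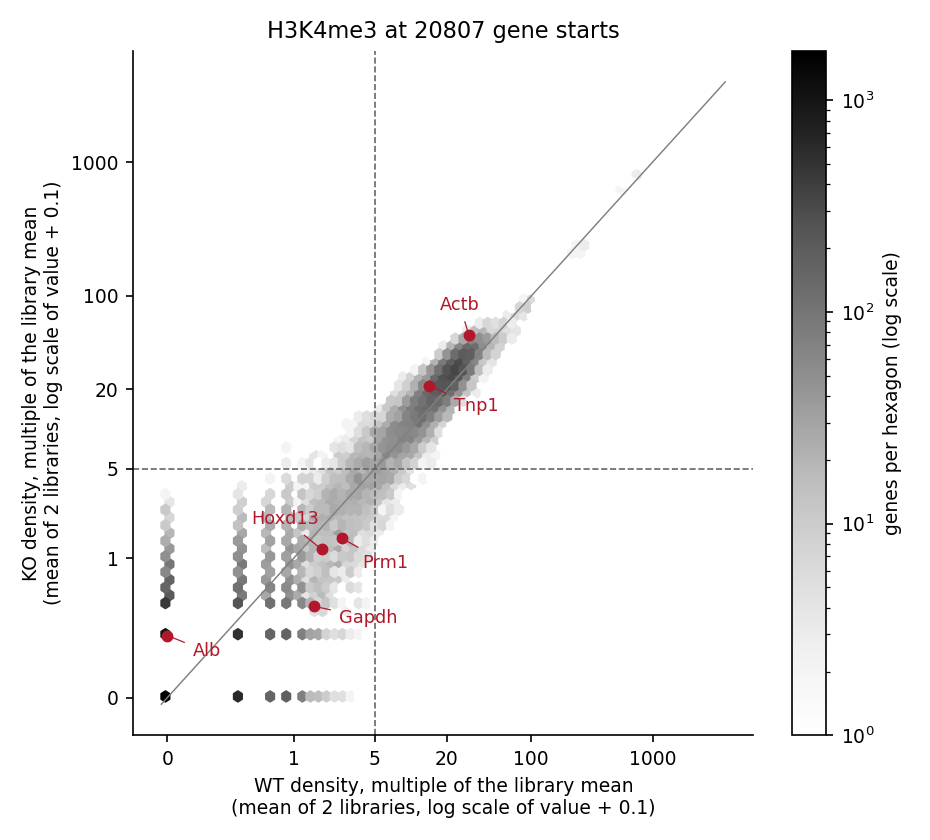
H3K4me3 density at 20807 gene starts in WT (x axis) and KO (y axis), each the mean of 2 libraries as a multiple of the library mean, on log axes of the value plus 0.1, with the number of genes per hexagon in grey. Dashed lines mark 5 times the mean and red points mark Actb, Tnp1, Prm1, Gapdh, Hoxd13 and Alb, of which Actb and Tnp1 lie above both lines. Most genes form a cloud along the diagonal from 5 to 50 times or sit near 0 in both genotypes.

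Of the autosomal fragments, 18.9% and 16.3% lay in gene-start windows in KO and 15.5% and 15.3% in WT, with 95% Wilson intervals, which cover counting error only, no wider than 15.4 to 15.6% (WT replicate 1). KO averaged 17.6% ± 1.89 and WT 15.4% ± 0.124 (SD, n = 2 each), 2.18 percentage points apart. It exceeded the pooled SD between replicates of 1.34 points, was 3.43 points in pair 1 and 0.926 in pair 2, and had an exact permutation p of 0.33333, the smallest that 2 libraries against 2 allow. In IgG the shares were 13.1% and 6.05% in KO and 9.43% and 7.30% in WT, with differences of 3.71 points in pair 1 and -1.24 in pair 2. The part of background in the H3K4me3 difference was not tested. Without KO replicate 1, the library with the highest share, the difference was 0.838 points.

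Coverage was then compared gene by gene. Limma-voom on fragments per window, scaled to the autosomal fragments of each library, called 0 of 10680 tested windows higher in KO (0%) and 0 lower (0%) at an adjusted p under 0.05. At an unadjusted p under 0.05 there were 299 higher and 60 lower windows, and limma-trend also called 0. The median log2 difference of all tested windows was 0.16, and it was 0.00 with median-of-ratios scaling, under which the unadjusted counts turned to 86 higher and 130 lower. With the pair as a block the count stayed at 0, with 673 higher and 112 lower at an unadjusted p under 0.05, and 394 higher and 425 lower when the block was joined to median-of-ratios scaling. Without WT replicate 2, limma-voom called 2 windows higher and 3 lower, Lin28a among the latter, with WT then represented by replicate 1 alone.

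The windows with the smallest p that moved the same way in both pairs are given as values, not as calls. At U2af2, which encodes a splicing factor (chromosome 7, start at 5062143), the density was 34.6 and 32.4 times in KO and 22.6 and 10.8 times in WT, a log2 difference of 1.32 ± 0.38 (SE), with 12.4 times in IgG. Rmdn3 encodes a mitochondrial tethering protein (chromosome 2, start at 119157034). Its density was 44.4 and 26.7 times in KO and 13.9 and 14.5 times in WT, with 0 fragments in the shallow IgG libraries. At Zfp58, a zinc finger gene (chromosome 13, start at 67500555), it was 39.5 and 27.8 times in KO and 10.4 and 14.5 times in WT. Tspyl4 and 1700037C18Rik had log2 differences of 1.34 and 1.14, and the window of the latter holds another gene start at 112 bp. In the other direction, Men1, which encodes menin, a subunit of MLL complexes (chromosome 19, start at 6334979), was at 7.90 and 8.77 times in KO and 27.8 and 13.9 times in WT, a log2 difference of -0.97 ± 0.42 (SE). Zfp472 was at 18.8 and 14.9 times in KO and 38.2 and 24.1 times in WT. Vasn, Gm3278 and Gm3269 differed by -0.96, -1.08 and -0.94 on the log2 scale, and these rested on KO replicate 2, without which they were -0.46, 0.49 and -0.0092. With every deposited fragment counted, Gm3278 and Gm3269 differed by -0.33 and -0.38. Thinned to the smallest library, Vasn differed by -0.24, Gm3269 by -1.55 and Zfp472 by -1.44, the last from -0.81. Without WT replicate 2, U2af2 differed by 0.55, Tspyl4 by 0.79, 1700037C18Rik by 1.92, Men1 by -1.70 and Zfp472 by -1.26, and Gm3278 and Gm3269 by -1.62 and -1.55. Without KO replicate 1, Gm3278 and Gm3269 differed by -1.75 and -1.43, and Rmdn3 by 0.86. Gm3278 and Gm3269 are predicted genes with close copies on chromosome 14. Their windows and that of 1700037C18Rik were also at 5 times or more in IgG, and Vasn starts within 2 kb of another gene start. The adjusted p was 0.9997 for each of the 10 genes (limma-voom), and 0.478 to 0.663 with the block.

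By list, the spermatid list had 27 windows tested and 0 called, with a median log2 difference of 0.20 beside 0.16 over all windows, and 17 of the 27 were higher in KO in both pairs, beside 40.8% of all windows. Of the other lists, 6 of 19 meiotic, 4 of 8 spermatogonial, 11 of 27 housekeeping, 4 of 15 enzyme, 1 of 9 Hox and 6 of 15 olfactory windows were higher in KO in both pairs. The median was 0.10 on the meiotic list (19 tested), 0.11 on the spermatogonial list (8 tested), 0.11 on the housekeeping list (27 tested), 0.07 on the enzyme list (15 tested), -0.01 on the Hox list (9 tested) and 0.14 on the olfactory list (15 tested), with 0 called on each. Actb had the log2 difference 0.75 ± 0.35 (SE), and Tnp1 0.58 ± 0.39.

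The median log2 difference, KO minus WT, was 0.28 in pair 1 and 0.084 in pair 2, with SDs across windows of 0.71 and 0.45. The R2 between the pairs over 10680 windows, which are not independent replicates, was 0.00429. Counting error in each window lowers this R2, so it cannot show whether changes by gene repeat between the pairs. Windows higher in KO in both pairs were 40.8% and lower in both 14.7%. After the median of each pair was subtracted, the shares were 26.1% and 26.3%.

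The second question was the size of the fragments, which the study divides into small (120 bp or less) and large (150 bp or more). In windows of the 8930 genes with the mark, 38.6% and 35.9% of fragments were small in KO and 28.8% and 23.2% in WT, so each KO library was above both WT libraries. As a log2 ratio of small over large, this was -0.56 and -0.66 in KO (mean -0.61 ± 0.071, SD, n = 2) and -1.21 and -1.58 in WT (mean -1.40 ± 0.26). The difference of 0.79 was above the pooled SD of 0.19, and it was 0.65 in pair 1 and 0.92 in pair 2, with an exact permutation p of 0.33333, the smallest possible. In IgG libraries the ratio in the same windows was -0.96 and -1.16 in KO and -1.32 and -1.50 in WT, a difference of 0.35 (0.36 and 0.33 in the pairs). The H3K4me3 difference less the IgG difference was 0.29 in pair 1 and 0.59 in pair 2.

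**Figure D3:**
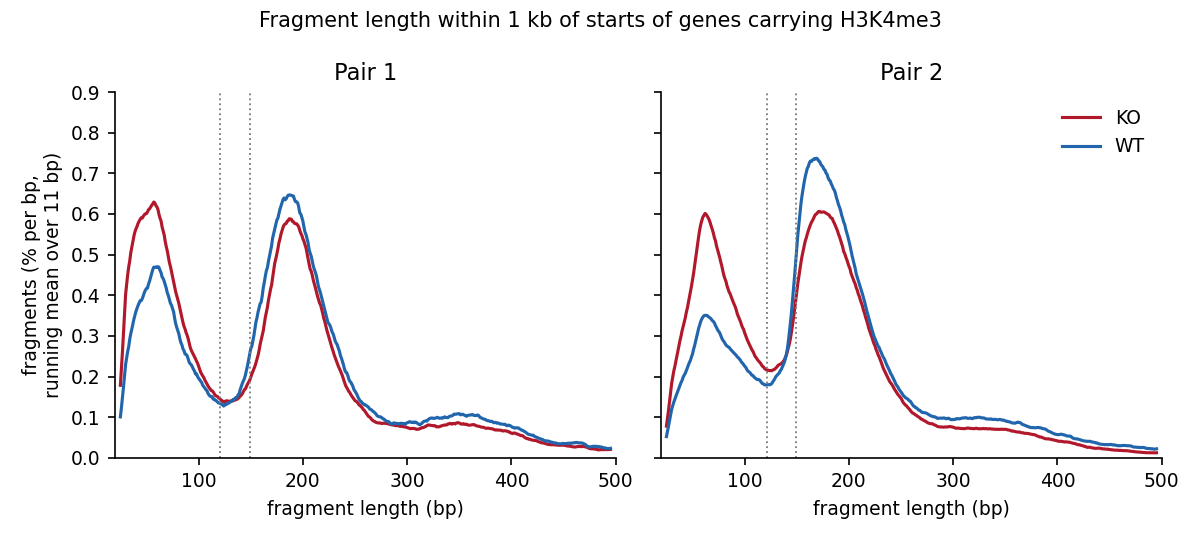
Length of fragments within 1 kb of the starts of genes carrying H3K4me3, as percent of fragments per bp after a running mean over 11 bp, in KO (red) and WT (blue) of pair 1 (left) and pair 2 (right), with dotted lines at the limits of small and large fragments. In both pairs the KO curve is higher in the small range and lower at the nucleosomal peak, which lies at 187 bp in both libraries of pair 1 and at 171 and 169 bp in pair 2.

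The shift was also measured outside marked genes. In windows of the 9805 genes without the mark, the log2 ratio was -1.15 and -0.88 in KO and -1.74 and -1.96 in WT, a difference of 0.84 (0.59 and 1.08 in the pairs), and over chromosomes 1 to 19 the difference was 0.86. In IgG the difference was 0.11 in the same unmarked windows, with pairs of opposite sign (-0.39 and 0.62), and 0.43 over chromosomes 1 to 19 (0.39 and 0.47 in the pairs). Within each library the ratio was higher at marked than at unmarked genes, by 0.59 and 0.22 in KO and 0.53 and 0.38 in WT. This contrast differed between the genotypes by -0.051, less than its pooled SD of 0.20, with pairs of opposite sign (0.057 and -0.16) and an exact permutation p of 1.

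The shift also ran through genes of every density. When the 8930 genes were divided by their mean density into 5 groups of equal size, the difference between KO and WT lay between 0.62 and 0.68 in pair 1 and fell from 1.07 in the lowest group to 0.89 in the highest in pair 2. The ratio itself rose with density from the lowest group to the next-to-highest in every library, from -0.82 to -0.39 in KO replicate 1 and from -2.03 to -1.48 in WT replicate 2. Over the marked genes of the spermatid list the difference was 0.36 in pair 1 and 0.97 in pair 2, over those of the meiotic list 0.63 and 1.01, and over those of the housekeeping list 0.56 and 0.94. The groups of libraries did not overlap on the meiotic and housekeeping lists, nor on the spermatid list, where KO stood at -0.26 and -0.53 and WT at -0.62 and -1.49. The 7 marked spermatogonial genes differed by -0.94 in pair 1 and 0.86 in pair 2, with WT replicate 1 at 0.21, the library in which small fragments at Lin28a stood out. The single marked Hox gene differed by 0.17 and -0.36.

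The length of nucleosomal fragments moved little. The modal length of fragments above 120 and up to 250 bp in marked windows was 187 and 171 bp in KO and 187 and 169 bp in WT, a difference of 1 bp (0 and 2 bp in the pairs) beside a pooled SD of 12.04 bp and an exact permutation p of 1. The replicates of a genotype thus differed by more than the genotypes.

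In marked windows, small fragments were densest in the 50 bp before the start, at 9.98 and 7.03 fragments per kb per gene per 1000000 autosomal fragments in KO and 6.52 and 4.07 in WT. Large fragments were densest in the bin centred 125 bp after the start, at 8.79 and 7.42 in KO and 8.55 and 8.10 in WT. A lesser peak of large fragments lay in the bin centred 175 bp before the start. Small fragments within 200 bp of the start were set against those 500 to 1000 bp away, each as a density per bp. The log2 ratio of these densities was 0.93 and 0.73 in KO and 0.99 and 0.59 in WT. Its difference of 0.044 was below the pooled SD of 0.22, with pairs of opposite sign (-0.051 and 0.14) and an exact permutation p of 1. For large fragments the ratio was 0.444 and 0.467 in KO and 0.438 and 0.318 in WT, so both KO libraries were above both WT libraries. Their difference of 0.078 was above the pooled SD of 0.061, was 0.0065 in pair 1 and 0.15 in pair 2, and had an exact permutation p of 0.3333, the smallest possible. Without WT replicate 2 it was 0.017, and without WT replicate 1 it was 0.14. In IgG the ratio was 1.002 and 0.887 in KO and 1.02 and 0.983 in WT for small fragments, and 0.555 and 0.444 in KO and 0.602 and 0.413 in WT for large ones, so background fragments were gathered at these starts as well.

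**Figure D4:**
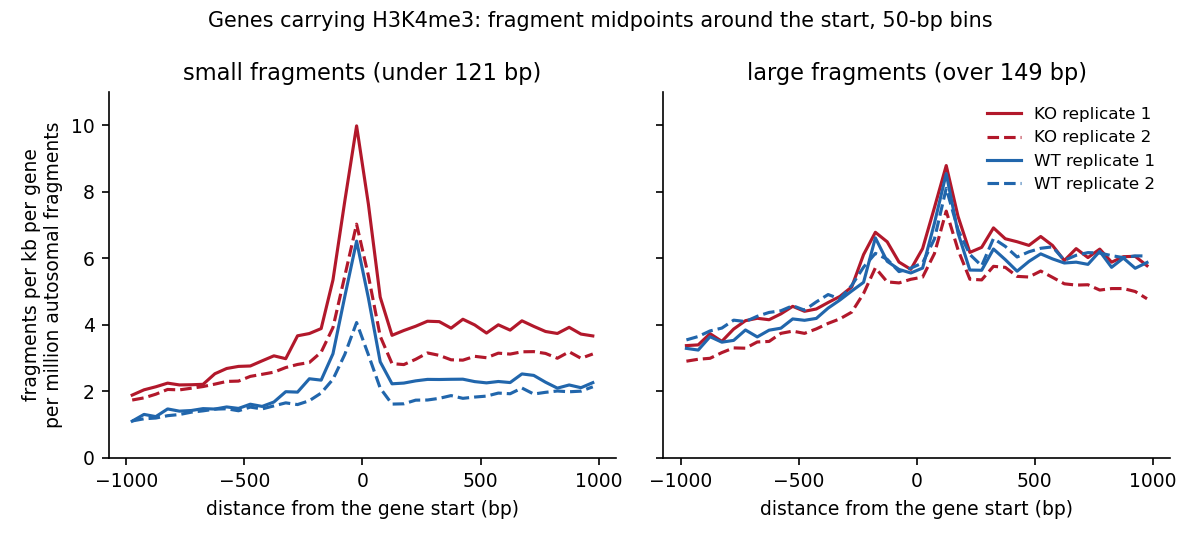
Midpoints of small (left) and large (right) fragments around the starts of genes carrying H3K4me3, in 50-bp bins, as fragments per kb per gene per 1000000 autosomal fragments against the distance from the start in bp, for KO (red) and WT (blue) with replicate 1 solid and replicate 2 dashed. Small fragments peak just before the start in all 4 libraries, at 9.98 and 7.03 in KO and 6.52 and 4.07 in WT, and large fragments peak in the bin centred at 125 bp.

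To look for genes that depart from the common shift, the log2 ratio of each window was centred on the median of its library and tested with limma. Of 9360 windows, 0 were called higher in KO (0%) and 1 lower (0.0107%) at an adjusted p under 0.05, with 125 higher and 296 lower at an unadjusted p under 0.05. Without weights the unadjusted counts turned to 224 higher and 181 lower, so the excess of lower windows depended on the weights. The called window was Gm10800, the multi-copy window that stood at 18620 times in IgG, where the centred difference was -0.52 ± 0.060 (SE, adjusted p = 7.36e-14, limma). Its ratio was -0.92 and -1.02 in KO and -1.41 and -1.21 in WT, so it was still higher in KO but by less than the median window. Gm10800 was not called without weights (-0.43), in windows of 500 bp (-0.32), thinned to the smallest library (-0.34) or at 1 or more small and large fragments (-0.45). Its centred difference was -0.77 without WT replicate 1 and -0.082 without WT replicate 2, far wider apart than the SE. The SE rests on weights from counting error, which is small in a window of so many fragments.

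Among genes not called, Med10, a subunit of the Mediator complex, had log2 ratios of 0.29 and 0.48 in KO and -2.50 and -2.65 in WT, with 1 and 5 small fragments in the WT libraries (adjusted p = 0.656, limma). Ndrg3 had ratios of -0.28 and 0.97 in KO and -4.25 and -3.70 in WT, with 0 and 1 small fragments in WT. Their centred differences were 2.15 and 3.49. Gm8232, Gm10340 and Gm6676, with centred differences of 1.85, 1.33 and 1.43, and Gm10801, Gm10718 and Gm17535, with -0.59, -0.52 and -0.57, belong to multi-copy families. Not centred, the last 3 differed by 0.24, 0.28 and 0.25, and without WT replicate 2 by -0.34, -0.32 and -0.22. Gm8232 differed by 1.11 without KO replicate 2, and Gm6676 by 0.85 and Gm10718 by -0.33 without KO replicate 1. In windows of 500 bp on either side of the start, Gm8232 and Gm6676 differed by 3.13 and 2.99, Med10 by 1.23, Ndrg3 by 2.24 and Gm10718 by -0.27. Thinned to the smallest library, Ndrg3 differed by 1.98 and Gm17535 by -0.31, and with every deposited fragment counted Gm10340 differed by 0.46 and Gm10718 by -0.81. At Smcp the log2 ratio was -0.75 and -0.43 in KO and -1.64 and -0.90 in WT, and at Actb it was -1.66 and -0.73 in KO and -0.82 and -1.51 in WT, where the groups overlapped.

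Not centred, the median difference of the 9360 windows was 0.79, and limma called 30 of them higher in KO (0.321%) and 0 lower. KO exceeded WT in both pairs in 5828 windows (62.3%) and was below WT in both in 302 (3.23%). The pair medians were 0.58 and 0.93, and R2 between the pairs was 1.09e-06 over the 9360 windows. The test of each window and this R2 rest on few fragments per window. A window at the mean density holds 0.576 to 2.62 fragments, and the median marked window stood at 19.7 times that density in WT.

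**Figure D5:**
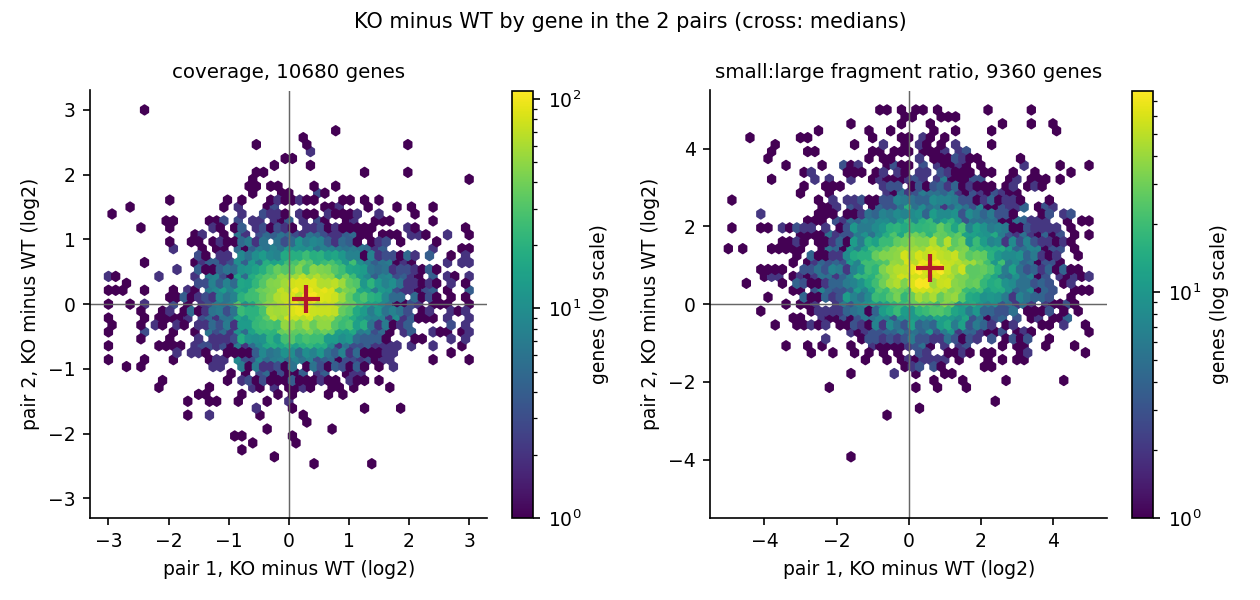
KO minus WT difference of each gene in pair 1 (x axis) and pair 2 (y axis), on the log2 scale, for coverage (left, 10680 genes, values beyond 3 drawn at the edge) and for the ratio of small to large fragments (right, 9360 genes, values beyond 5 drawn at the edge), with the number of genes per hexagon in colour and a red cross at the medians. The coverage cloud sits close to 0 (medians 0.28 and 0.084), and the ratio cloud is displaced toward KO in both pairs (medians 0.58 and 0.93) without a slope.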

How the data were processed

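AutoCUT&RUN fragments were measured in 4 H3K4me3 and 4 IgG libraries (KO and WT, 2 replicates each). Per the study's methods, the authors sequenced paired 25-base reads, aligned them to mm10 with Bowtie2 (version 2.3.4.3 in the submitters' processing notes) with inserts up to 700 bp and wrote each fragment's chromosome, start, end and length. The deposited files hold 1 line per fragment, with fragment coordinates and lengths in bp, no signal and no normalization. Although duplicate removal is described, many lines of the H3K4me3 libraries repeated earlier coordinates, so each set of coordinates was counted once per library. The repeated share was 76.9% and 49.5% in KO and 83.4% and 62.2% in WT, so it was higher in WT in both pairs. Its part in the KO minus WT differences was not tested. Lengths of all 19 autosomes matched the GRCm38 reference.

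Counts per gene-start window (GENCODE vM21) were made here from the deposited coordinates and tested with limma-voom at 20 or more fragments over the 4 libraries. The small to large ratio used limma on log2((small + 0.5)/(large + 0.5)), weighted and centred on the library median, at 10 or more of each. P-values were adjusted by Benjamini-Hochberg. Libraries were compared by two-sided exact permutation tests, which cannot go below 0.3333. Tests were checked on simulated data. Same-numbered libraries came from sibling pairs, and their deviations from the group means correlated at 0.283 for coverage and 0.0125 for the ratio. Their titles also share number codes that differ between replicates 1 and 2, so the sibling pair cannot be told apart from what these codes stand for. Named genes were the 10 highest isolated windows, the 3 highest and the lowest of each list, up to 5 per direction and test that moved alike in both pairs, and the genes labelled in the plot of KO against WT; others were named after their values were seen. A few genes and sequences that meet this rule are not reported here. The members and lists were chosen with earlier results of these data known. Alternatives covered scaling, filters, pseudocounts, window width, start definition, duplicates, size limits, thinning, left-out libraries and the replicate block. Other targets of the series were not analysed here. Counting used NumPy 2.4.6 and pandas 2.3.3 under Python 3.11.15, permutations used SciPy 1.17.1, and the tests by gene used limma 3.58.1 under R 4.3.3.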

Additional observations from a re-analysis of the deposited data

How the results depend on the processing

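The numbers of marked genes stayed within 1.5 times of those reported under each alternative (6854 to 10336 in WT, 6952 to 10354 in KO, 6546 to 9890 in all 4), and the KO minus WT share of fragments in windows kept its sign, at 0.838 to 3.51 points with 1 library left out (0.838 without KO replicate 1, 3.51 without KO replicate 2). The KO minus WT difference in small over large fragments at marked genes, on the log2 scale, was 1.07 with every deposited fragment counted and 0.60 to 0.97 with 1 library left out. The contrast of marked with unmarked genes changed sign to 0.063 with every deposited fragment, and lay between -0.23 and 0.15 with 1 library left out (0.15 without KO replicate 2, 0.0042 without WT replicate 1). The modal length lay between -8 and 10.5 bp (-8 without WT replicate 2, -7 without KO replicate 1). The difference of small fragments near the start was -0.0077 with every deposited fragment, and between -0.15 and 0.24 with 1 library left out (-0.15 without WT replicate 2, -0.057 without KO replicate 1). That of large fragments near the start kept its sign, at 0.017 to 0.14 with 1 library left out (0.017 without WT replicate 2). The cause was not tested.

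In the coverage test 0 to 2 windows were called higher and 0 to 3 lower with 1 library left out, all without WT replicate 2. With 1 library left in a group, it is assumed to vary like the other group. In the ratio test, called windows were 30 higher and 0 lower when not centred, where Gm10800 turned to 0.32, 0 lower when unweighted, at 1 or more small and large fragments, in windows of 500 bp, thinned to the smallest library and without windows high in IgG, which leaves out Gm10800 itself, and 3 lower with every deposited fragment. Leaving out 1 library gave 0 to 1 higher and 0 to 3 lower (1 higher without KO replicate 1, 3 lower without WT replicate 1, 2 without either KO library and 0 without WT replicate 2). With the pair as replicate block the library differences are the same by construction (2.18, 0.79, -0.051, 1, 0.044 and 0.078), and the calls were 0 and 0 for coverage, also with median-of-ratios scaling, and 0 and 1 for the ratio.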

Other observations

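Gene families taken by symbol, a grouping made after the data were seen, differed widely in how many members carried H3K4me3 in all 4 libraries, beside 42.9% of all genes. All 6 Tssk genes, which encode testis-specific serine kinases, carried it, with family medians of 32.1 and 39.3 times the mean density in KO and 23.4 and 29.2 times in WT. Of 30 Tex genes, named for their expression in testis, 26 carried it, as did 72 of 79 ribosomal protein genes and 32 of 38 proteasome genes. Zinc finger (Zfp) genes stood at 208 of 388, clustered histone genes at 32 of 67 and solute carrier genes at 133 of 372. Near the other end were keratin genes at 5 of 113, beta-defensin genes at 1 of 42, interleukin genes at 2 of 30, chemokine genes at 4 of 35 and vomeronasal receptor genes at 3 of 329. Members of several of these families lie in clusters of near-identical copies, and limma-voom called 0 of their tested windows different between KO and WT (0 of 10680 windows over all genes, with 299 higher and 60 lower at an unadjusted p under 0.05, and 0 with limma-trend).

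The share of genes carrying the mark in all 4 libraries ranged over the autosomes from 35.4% on chromosome 6 to 54.1% on chromosome 12, where 348 of 643 genes carried it.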
